A study of Homo sapiens with 20 samples.

Results

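The transcripts described here encode 10 members of the Krüppel-like factor (KLF) family, KLF2, KLF3, KLF4, KLF5, KLF6, KLF7, KLF9, KLF10, KLF11 and KLF13, measured in U2OS cells, an established human osteosarcoma line. They were taken by gene symbol from the array annotation, which gave 32 probe sets for the 10 genes, of 54675 probe sets and 19775 genes with a probe set of their own on the array. The brightest probe set on average stood for each gene. A representative had to exceed the 40th percentile of all probe sets, an intensity of 26.0, to be tested, and 9 of the 10 genes and 24 of the 32 probe sets did.

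The study compared 5 conditions, with nonsense-mediated decay (NMD), the pathway that removes transcripts with premature stop codons, as its subject. U2OS cells grown in DMEM with serum were left as controls, kept at an oxygen level below 0.1% (hypoxia), given tunicamycin at 2.5 ug/ml (an inhibitor of N-linked glycosylation that stresses the endoplasmic reticulum), given emetine at 100 ug/ml (an inhibitor of translation elongation), or depleted of the NMD helicase UPF1 with a short hairpin RNA against Rent1, another name for UPF1 (shRent1). The labels give a treatment of 3 hr, and they state neither a control hairpin for the shRent1 cells nor separate cultures. All 5 conditions then received DRB at 100 ug/ml, which blocks transcript elongation by RNA polymerase II. Sampling was at the time of DRB addition (0 hr) and 1.5, 3 and again 4.5 hr later, with 1 array for each condition and time and 20 in all.

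Krüppel-like factors bind GC-rich and CACCC elements through zinc fingers at their C terminus, and differ in the N-terminal domains that recruit activators or repressors. Many are encoded by immediate-early or otherwise short-lived transcripts whose level follows transcription closely. KLF2, KLF4, KLF5, KLF6 and KLF7 are mostly described as activators, KLF3 recruits the repressor CtBP, and KLF9, KLF10, KLF11 and KLF13 recruit the SIN3A repressor complex. In bone and osteosarcoma cells KLF10 is known as an early gene of TGF-beta signalling.

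Array-wide facts bear on all of these values. The median intensity was 37.3 to 40.4 on the 20 arrays, and intensities are relative to the rest of each array, so a loss shared by most transcripts after DRB does not appear. UPF1 read 354.5, 352.4, 392.2 and 377.0 in control and 169.5, 92.4, 94.7 and 89.4 in shRent1 at the 4 times, below control on every array. Of 9 mesenchymal markers 7 were above the test level (VIM, SPARC, COL1A1, COL5A2, CDH2, RUNX2 and ALPL, but not COL1A2 or TWIST1), beside 2 of 4 epithelial markers (EPCAM and KRT8), 1 of 4 haematopoietic (CD3E), 2 of 3 endothelial (PECAM1 and VWF) and 0 of 2 hepatic markers. The log2 ratio of the 3' to the 5' control probe sets of ACTB, a measure of how far probes near the 3' end dominate, was 0.55 ± 0.10 (SD, n = 4) in control, 0.54 ± 0.11 in tunicamycin, 1.24 ± 0.06 in shRent1, and 2.04 in both hypoxia (± 0.13) and emetine (± 0.19). The ACTB ratio therefore moved with 3 of the 4 comparisons with control. The same ratio for GAPDH moved far less, from 0.04 ± 0.04 (control) to 0.15 ± 0.04 (hypoxia) and 0.11 ± 0.03 (emetine). The shRent1 arrays gave 0.07 ± 0.02 for GAPDH, and the tunicamycin arrays 0.0 ± 0.04. A shift of the size seen for ACTB was thus not shared by GAPDH, and the part of either ratio in the results was not tested.

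The start regions of 4 members are shown because they stand for different courses: KLF2 and KLF11 were high in emetine, KLF6 dropped early in control and came back, and KLF13 was lower in emetine. Each sequence is the 250 bases before the annotated start, 5' to 3' on the gene's strand, from RefSeq on GRCh38.p14, which held a start region for 8 of the 10 members, without KLF3 and KLF10. KLF2 lies at chr19:16324576-16324825 on the plus strand, KLF6 at chr10:3785210-3785459 on the minus strand, the second start of KLF11 at chr2:10043971-10044220 on the plus strand, and KLF13 at chr15:31326585-31326834 on the plus strand.
KLF2: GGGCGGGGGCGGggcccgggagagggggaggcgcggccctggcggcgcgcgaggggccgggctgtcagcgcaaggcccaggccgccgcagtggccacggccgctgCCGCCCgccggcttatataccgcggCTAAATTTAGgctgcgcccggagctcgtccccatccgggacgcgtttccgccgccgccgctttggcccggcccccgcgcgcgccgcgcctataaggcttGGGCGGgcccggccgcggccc
KLF6: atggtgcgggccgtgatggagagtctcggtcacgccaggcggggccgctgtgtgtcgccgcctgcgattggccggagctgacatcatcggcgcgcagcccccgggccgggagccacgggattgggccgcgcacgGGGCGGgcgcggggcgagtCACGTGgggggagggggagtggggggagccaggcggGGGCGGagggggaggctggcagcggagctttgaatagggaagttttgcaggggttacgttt
KLF11: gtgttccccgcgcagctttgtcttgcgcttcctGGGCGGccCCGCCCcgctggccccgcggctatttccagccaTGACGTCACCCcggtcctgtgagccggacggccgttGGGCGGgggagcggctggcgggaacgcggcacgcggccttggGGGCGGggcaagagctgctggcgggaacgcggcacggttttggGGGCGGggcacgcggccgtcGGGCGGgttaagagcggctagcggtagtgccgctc
KLF13: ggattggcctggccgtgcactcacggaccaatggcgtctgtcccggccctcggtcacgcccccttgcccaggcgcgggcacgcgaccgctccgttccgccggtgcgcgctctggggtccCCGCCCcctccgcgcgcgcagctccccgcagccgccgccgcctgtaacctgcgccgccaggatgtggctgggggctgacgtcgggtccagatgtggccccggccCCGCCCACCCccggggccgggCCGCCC
Capitals mark every match on either strand, overlaps included, to the GC box GGGCGG, the CACCC box, the hypoxia-inducible factor core ACGTG, the CRE TGACGTCA, and the CArG and MEF2 sites by name. The KLF2 region held 4 GC boxes and the MEF2 site, the KLF6 region 2 GC boxes and an ACGTG core that reads on both strands, the KLF11 region 6 GC boxes with a CRE overlapping a CACCC box, and the KLF13 region 3 GC boxes, of which 1 overlaps a CACCC box. Among all 35116 RefSeq start windows of 300 bases, 45.0% held a GC box, 59.9% a CACCC box, 21.4% an ACGTG core, 1.85% a CRE and 2.99% a MEF2 site. These matches describe the letters only, and no binding was measured.

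In emetine most of the family was higher than in control when DRB was added. Of the 9 genes tested 7 were higher, KLF2, KLF3, KLF5, KLF6, KLF9, KLF10 and KLF11, with fitted folds from 1.91 to 11.4, and KLF13 was lower. The background was 18.9% of all 14478 genes called higher and 19.8% called lower. The median log2 difference was 1.63 over the 9 genes and -0.076 over all genes tested. Calls were made with limma at a Benjamini-Hochberg adjusted p below 0.05 over all genes, and differences at DRB addition are the values fitted at 0 hr from all 20 arrays. With 1 array at each point, p-values reflect how far single arrays scatter around the fitted courses and nothing more, and all 4 comparisons use the same 4 control arrays.

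**Figure D1:**
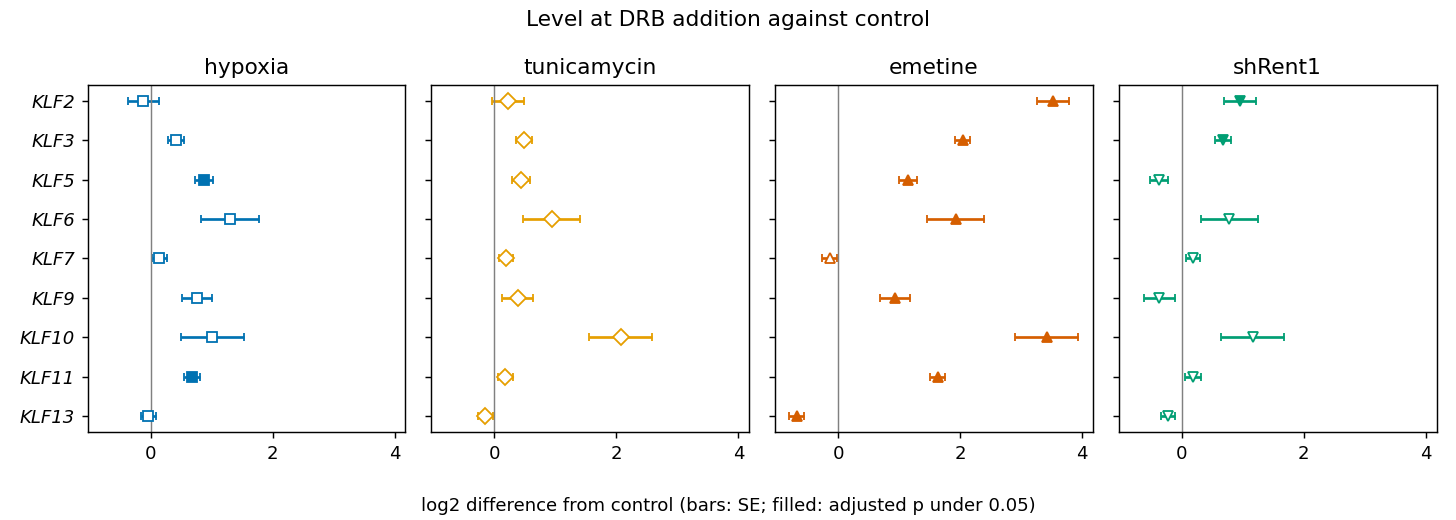
Log2 difference from control at DRB addition (horizontal axis, log2 units, fitted by limma) for the 9 tested KLF genes in hypoxia, tunicamycin, emetine and shRent1. Points are estimates, bars are ± 1 SE, and filled points passed an adjusted p of 0.05; in emetine 7 genes lie right of 0 and KLF13 left of it as filled points, and no point is filled in tunicamycin.

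KLF2, a quiescence factor best known from endothelium under flow, read 162.6, 72.9, 64.0 and 46.8 in control at the 4 times in order. In emetine it read 1574, 1399, 1287 and 1110. All 4 emetine arrays lay above all 16 others, of which the highest was 318.6 in shRent1 at 0 hr. The fitted difference at DRB addition was 3.52 ± 0.26 (SE) on the log2 scale, 11.4-fold, with a limma adjusted p of 1.18e-06. This rests on 1 probe set that may detect further transcripts. The second KLF2 probe set was dim, 38.8 to 61.2 over the 20 arrays, and fitted alone gave a difference of 0.28 (adjusted p = 0.192).

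KLF5, a growth-promoting factor of epithelia, read 737.8, 354.8, 279.8 and 262.1 in control and 1523, 1088, 1085 and 1172 in emetine, without overlap between the 2 conditions. Its difference was 1.14 ± 0.15, 2.21-fold (limma adjusted p = 7.7e-05). Its second probe set gave a larger log2 difference, 1.86.

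KLF6, an injury-induced factor studied as a tumour suppressor, read 843.3, 189.7, 285.4 and 419.8 in control and 1810, 1894, 1691 and 1861 in emetine. Here too the emetine arrays were all above the control arrays, but the hypoxia array at 0 hr, at 1713, fell within their range. The fitted difference was 1.93 ± 0.47, 3.8-fold (limma adjusted p = 0.00599), where the 0 hr arrays themselves had a ratio of 2.15. It depended on those arrays, rising to 3.26 when the 0 hr control array was left out and to 3.00 when the 0 hr emetine array was. KLF7, known from neuronal growth, read 346.0, 329.2, 298.5 and 260.4 in emetine against 413.7, 311.8, 339.1 and 281.6 in control, overlapping, with a difference of -0.14 ± 0.12 (limma adjusted p = 0.371). Another KLF7 probe set was above control at each time, at 195.0, 190.0, 161.4 and 175.4 in emetine against 164.8, 146.8, 150.5 and 128.6. The rest of its probe sets above the test level were above control at only some times. KLF4, a reprogramming and differentiation factor, read 13.3 to 21.7 on all 20 arrays, below the test level in every condition, and no change was read from it.

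KLF3, the CtBP-dependent repressor, read 123.1, 74.1, 54.4 and 39.99 in control and 468.2, 479.6, 470.6 and 452.6 in emetine. The lowest emetine array was above every array of the other conditions, whose highest was 199.1. The difference was 2.04 ± 0.13, 4.11-fold (limma adjusted p = 4.59e-07). Taking the median of the 4 KLF3 probe sets in place of the brightest lowered it to 0.38, still called (adjusted p = 0.0132).

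Among the SIN3A-recruiting members, KLF10 had the largest difference. It read 1227, 278.5, 384.9 and 619.6 in control and 7459, 6872, 6970 and 6404 in emetine, and the emetine arrays exceeded the highest other array, 3171 in tunicamycin at 0 hr. The difference was 3.42 ± 0.52, 10.7-fold (limma adjusted p = 0.000252), a fitted value above the measured ratio of the 0 hr arrays, 6.08. KLF11, its close relative, read 170.9, 118.3, 70.3 and 55.4 in control and 500.2, 520.2, 478.0 and 415.2 in emetine, again with all emetine arrays above the other 16. Its difference was 1.63 ± 0.13, 3.1-fold (limma adjusted p = 1.51e-06), and 0.98 with the median of its probe sets. KLF2, KLF3, KLF10 and KLF11 were the members with all emetine arrays on top, a pattern found in 12.9% of all genes. Emetine was the highest condition at each time for KLF5 and KLF6 as well, so for 6 members, and for 16.3% of all genes.

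KLF9, a gene induced by glucocorticoid and thyroid hormone, read 183.4, 172.5, 112.8 and 100.3 in control and 413.1, 258.1, 250.2 and 228.1 in emetine. The ranges did not overlap, but the first emetine array stood well above the later ones. The difference was 0.93 ± 0.25, 1.91-fold (limma adjusted p = 0.0104). The call was lost without that array (0.26, adjusted p = 0.614) and without the control array at 0 hr (0.90, adjusted p = 0.15), and the median of its 5 probe sets gave -0.14.

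KLF13, which regulates lymphocyte and heart genes, went the other way. It read 726.0, 693.1, 525.4 and 490.4 in control and 445.5, 471.7, 429.8 and 386.4 in emetine, so that every emetine array was below every control array. The difference was -0.68 ± 0.12, 1.6-fold lower (limma adjusted p = 0.00068). It missed the threshold without the control array at 0 hr (-0.54, adjusted p = 0.0669) and with the median of its probe sets (-0.22, adjusted p = 0.119). Only 2 of the 4 KLF13 probe sets in that median were above the test level. The second of them read 184.1, 198.8, 176.2 and 180.8 in control and 146.9, 135.2, 109.0 and 111.1 in emetine, also lower.

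In hypoxia KLF5 and KLF11 were higher at DRB addition, 2 of 9 genes against a background of 3.21% called higher, and 0 of 9 were lower, where 4.44% of all genes were. KLF5 read 1184, 906.4, 579.1 and 624.9 in hypoxia, above control at each time, with a difference of 0.87 ± 0.15, 1.83-fold (limma adjusted p = 0.00534). KLF11 read 273.5, 183.2, 91.5 and 74.0, also above control at each time, with a difference of 0.68 ± 0.13, 1.6-fold (limma adjusted p = 0.0082). The KLF5 call was lost without the hypoxia array at 0 hr (adjusted p = 0.0718), and the KLF11 call without that array (0.29) or the control array at 0 hr (0.105). Both missed the threshold when only these 2 conditions were fitted (0.0919 and 0.0738).

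Averaged over the 4 times in a model without separate slopes, 5 members were higher in hypoxia, against a background of 9.99%. KLF10 was higher by 1.57 ± 0.38 (limma adjusted p = 0.00851), KLF6 by 1.31 ± 0.44 (0.0479), KLF5 by 1.08 ± 0.18 (0.00058), KLF9 by 0.83 ± 0.14 (0.000596) and KLF7 by 0.34 ± 0.11 (0.0325), all on the log2 scale. KLF11 was not called in this average (0.53 ± 0.19, 0.0629). KLF10 read 2333, 731.2, 1521 and 2471 in hypoxia, between 1.9 and 3.99 times control at the same times. KLF9 read 267.8, 373.3, 205.5 and 173.8, with its highest array at 1.5 hr, and another KLF9 probe set was also highest there (155.5, 204.9, 61.8 and 34.3). The remaining KLF9 probe sets were dimmer, at 24.3 to 56.9 in hypoxia, and were highest at 3 or 4.5 hr. None of these dimmer ones was above control at each of the 4 times. By their representative probe sets, 7 members, KLF3, KLF5, KLF6, KLF7, KLF9, KLF10 and KLF11, were above control at each of the 4 times, as were 19.7% of all genes. The other KLF5 and KLF6 probe sets above the test level shared this. Another KLF3 probe set read 71.1, 59.4, 47.2 and 39.7 in hypoxia against 77.4, 71.3, 57.7 and 54.3 in control, below at each time. Of the other KLF7 probe sets above the test level, 1 was below control at 0, 1.5 and 3 hr, and the rest were above it throughout.

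Tunicamycin left 0 of 9 members called at DRB addition by limma, with 3 at an unadjusted p under 0.05, against a background of 2.89% called in either direction. KLF10 came nearest. It read 3171, 1766, 823.4 and 775.1 in tunicamycin, above control at every time by 1.25 to 6.34 times. Its fitted difference was 2.07 ± 0.52, 4.2-fold where the 0 hr arrays had a ratio of 2.58, with a limma adjusted p of 0.0554 that ranged from 0.0175 to 0.156 over 29 alternatives and was below the threshold in 8 of them. In the average over the 4 times KLF10 (1.36 ± 0.38, limma adjusted p = 0.0175), KLF3 (0.64 ± 0.19, 0.0232) and KLF9 (0.43 ± 0.14, 0.0333) were higher, 3 members against a background of 11% called higher.

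In the UPF1-depleted cells KLF2 and KLF3 were higher, 2 of 9 members against a background of 9.68% called higher, and 0 of 9 were lower, where 3.99% of all genes were. KLF2 read 318.6, 152.6, 77.9 and 89.7, above control at every time, with a difference of 0.95 ± 0.26, 1.93-fold (limma adjusted p = 0.0325). KLF3 read 199.1, 123.2, 93.6 and 73.9, also above control at every time, with a difference of 0.68 ± 0.13, 1.6-fold (limma adjusted p = 0.00564). Both calls were lost without the control array at 0 hr (adjusted p = 0.224 and 0.0992) or the shRent1 array at 0 hr (0.454 and 0.226), and that of KLF2 also without the control (0.084) or shRent1 array at 1.5 hr (0.0681) and after quantile normalization (0.0659). The dim KLF2 probe set gave 0.44 (0.0856), and the median of the KLF3 probe sets gave 0.08. KLF5 read 535.5, 274.5, 170.2 and 143.4, below control at every time, by 0.37 ± 0.15 at DRB addition in log2 (limma adjusted p = 0.12), a call gained without the control array at 1.5 hr (adjusted p = 0.038), and in the average over 4 times the difference was -0.61 ± 0.18 (0.0166).

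**Figure D2:**
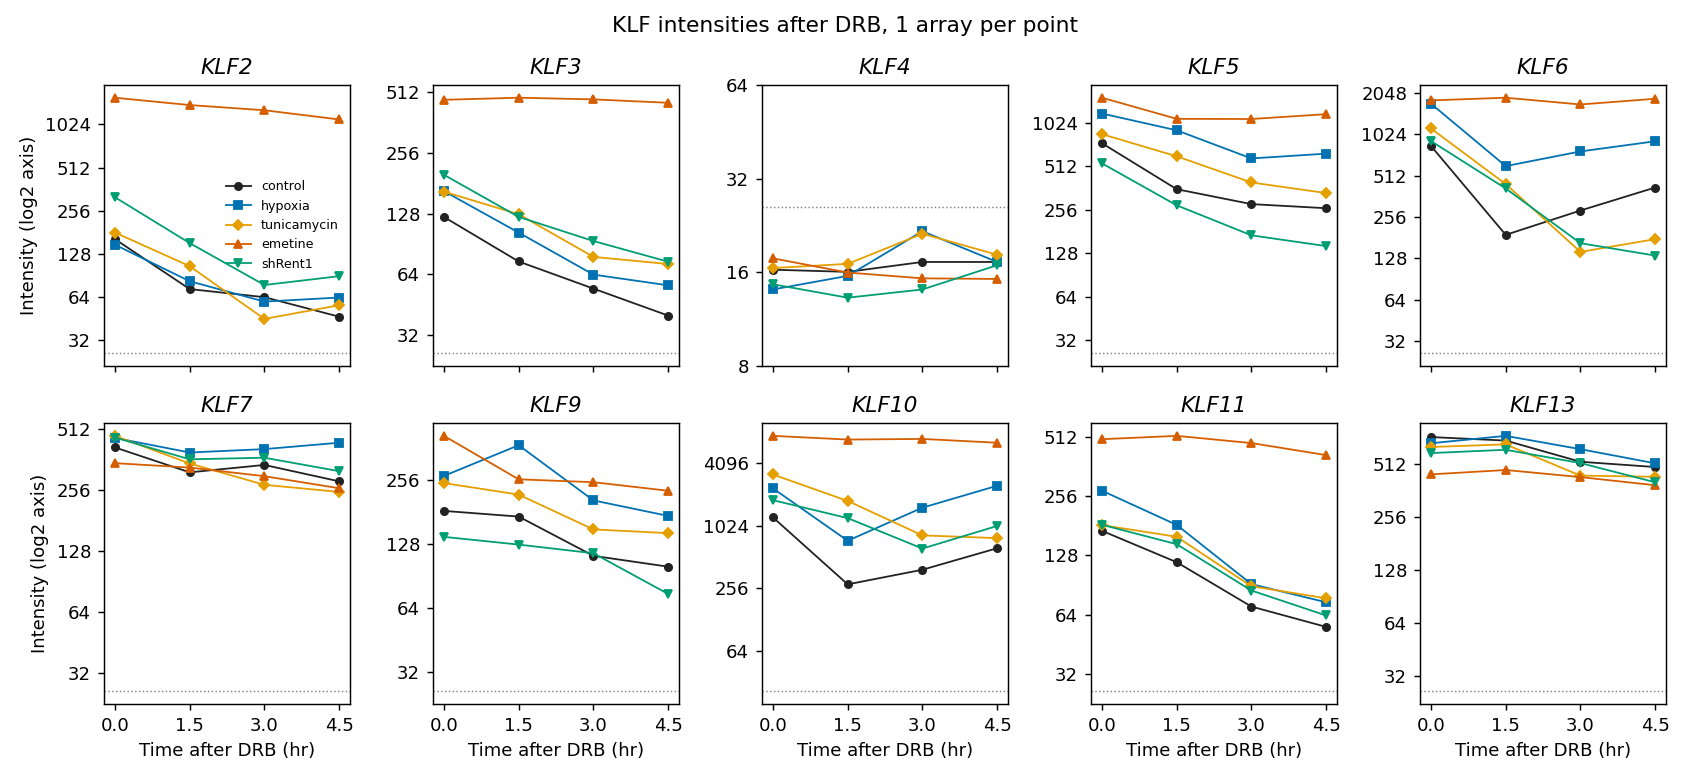
Intensity of the representative probe set of each of the 10 KLF genes (vertical axis, log scale) against hours after DRB (horizontal axis), 1 line per condition and 1 array per point. The dotted line is the test level of 26.0; KLF4 stays below it, and the emetine line is highest at each time for KLF2, KLF3, KLF5, KLF6, KLF10 and KLF11.

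After DRB most of these transcripts were called falling relative to the rest of the array in every condition but emetine. By a straight line through the 4 times, 7 of 9 members fell in control (background 17.5%), 5 in hypoxia (14.2%), 8 in tunicamycin (11.4%) and 8 in shRent1 (16.5%). In emetine limma called 0 of 9, with KLF7 and KLF9 at an unadjusted p under 0.05, against a background of 0.394% called in either direction. The slopes of KLF7 and KLF9 in emetine, -0.09 and -0.17, were close to those in control, -0.10 and -0.21. Each count leaned on single arrays. With the 0 hr array of control left out it was 2 in control, and with its 4.5 hr array left out 3. It was 2 in tunicamycin without its 0 hr array, 2 in shRent1 without its 0 hr array and 4 without its 4.5 hr array. In hypoxia it was 3 without the hypoxia array at 0, 3 or 4.5 hr, the tunicamycin array at 1.5 hr, or the emetine array at 3 or 4.5 hr. The median slope of the members was -0.21, -0.18, -0.30, -0.31 and -0.06 log2 units per hr in control, hypoxia, tunicamycin, shRent1 and emetine, where that of all genes was 0.022 to 0.030.

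**Figure D3:**
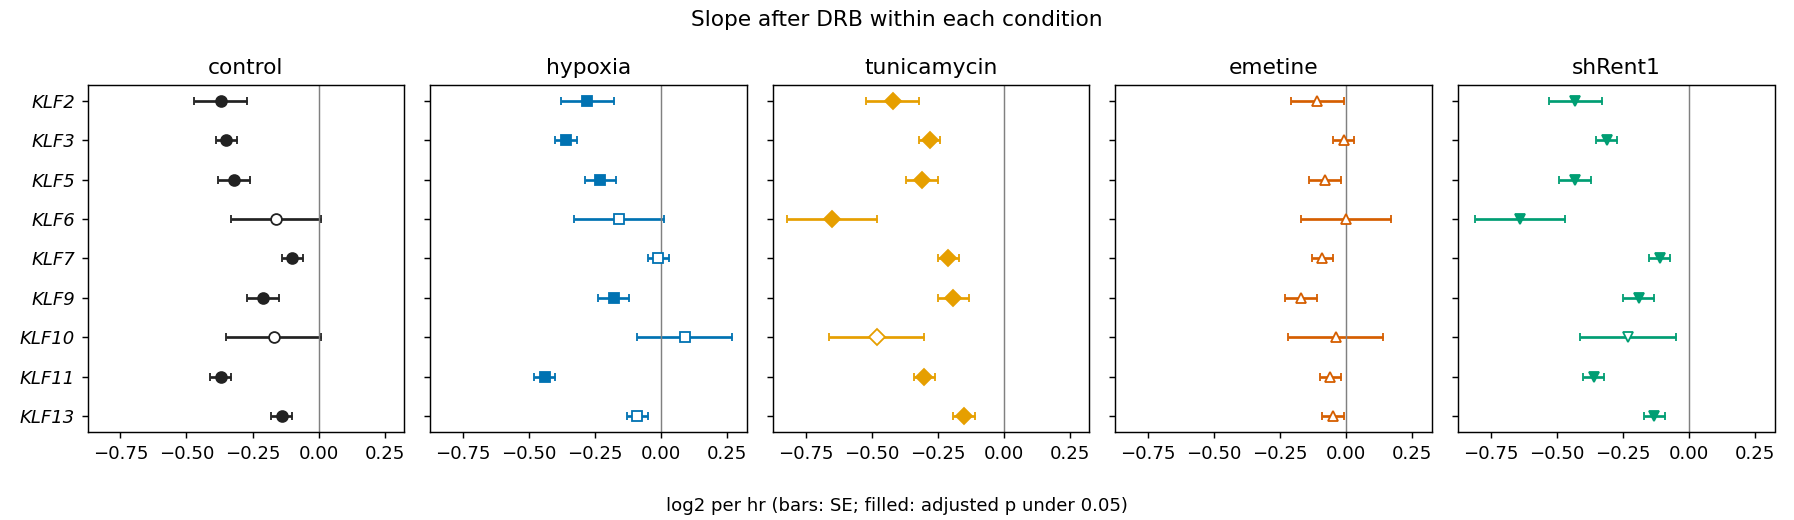
Slope after DRB (horizontal axis, log2 units per hr, relative to the array) of the 9 tested KLF genes in each condition, from a line per condition. Points are limma estimates, bars are ± 1 SE, and filled points passed an adjusted p of 0.05; no emetine point is filled.

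By the straight line, KLF11, KLF3 and KLF2 had the steepest falls in control. KLF6 and KLF10, whose courses in control were not straight, dropped faster in the first 1.5 hr, to 22.5% and 22.7% of their start. KLF11 fell by 0.37 ± 0.04 log2 units per hr (limma adjusted p = 2.1e-05) and reached 32.4% of its starting intensity at 4.5 hr, 27.0% in hypoxia. KLF3 fell by 0.35 ± 0.04 (1.7e-05) and reached 32.5%. KLF2 fell by 0.37 ± 0.10 (0.00965), from a single probe set as above, and reached 28.8%. That call was lost without the control array at 0 hr (adjusted p = 0.404) or 4.5 hr (0.0618), and the second, dim probe set was called in the opposite direction in control, with a slope of 0.12 (0.0351). KLF11 and KLF3 were called falling in control, hypoxia, tunicamycin and shRent1, with slopes from -0.44 to -0.28. With the median of a gene's probe sets the slopes were shallower, -0.26 to -0.16 for KLF11 and -0.15 to -0.07 for KLF3, and the KLF3 call in tunicamycin was lost (adjusted p = 0.17). For KLF11 that median takes in a probe set below the test level.

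KLF5 fell by 0.32 ± 0.06 per hr in control (limma adjusted p = 0.00212) and by 0.43 ± 0.06 in shRent1 (0.000258). It had 35.5% of its starting intensity left at 4.5 hr in control, 26.8% in shRent1 and 77.0% in emetine. The control call was lost without the control array at 0 hr (slope -0.15, adjusted p = 0.328), and the shRent1 call without the shRent1 array at 0 hr (-0.31, 0.0679). KLF7, KLF9 and KLF13 had shallower slopes in control, -0.10 ± 0.04 (limma adjusted p = 0.0384), -0.21 ± 0.06 (0.0209) and -0.14 ± 0.04 (0.0193), and each call was lost without the control array at 0 hr or at 4.5 hr. Each was also lost with the median of the gene's probe sets, some of them below the test level, at -0.05 (limma adjusted p = 0.371), -0.04 (0.632) and 0.01 (0.864). That median likewise lost the KLF9 calls in hypoxia (-0.07), tunicamycin (-0.07) and shRent1 (-0.01). KLF13, for example, retained 67.6% of its starting intensity in control at 4.5 hr.

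In emetine 3 members, KLF3, KLF5 and KLF11, had a higher slope than in control, where 12.8% of all genes did. The slope difference was 0.34 ± 0.05 log2 units per hr for KLF3 (limma adjusted p = 0.000288), 0.31 ± 0.05 for KLF11 (0.000398) and 0.25 ± 0.05 for KLF5 (0.00667). KLF3 stood at 96.7% of its starting intensity after 4.5 hr in emetine and KLF11 at 83.0%. The KLF5 difference was 0.15 (adjusted p = 0.246) without the control array at 0 hr, and was also lost without the emetine array at 0 hr (0.0557) or 4.5 hr (0.053) and without sampling time as a factor (0.11). That of KLF11 was 0.12 (0.0767) with the median of its probe sets, of which 1 of 2 was above the test level. That of KLF2, 0.26 ± 0.09, had an adjusted p of 0.0845, and 0.0208 without the emetine array at 4.5 hr.

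No slope difference passed the test in the other conditions. Limma called 0 of 9 in hypoxia (background 0.0345%), with 0 at an unadjusted p under 0.05, 0 in tunicamycin (5.24%), with KLF6 and KLF7, and 0 in shRent1 (0.0414%), with KLF6. For KLF6 the difference was -0.48 ± 0.17 in both tunicamycin (limma adjusted p = 0.139) and shRent1 (0.546). Without the control array at 0 hr it was -0.86 in tunicamycin, with an adjusted p of 0.0431. Within its own condition KLF6 fell in tunicamycin by 0.65 ± 0.17 log2 units per hr (limma adjusted p = 0.0146) and in shRent1 by 0.64 ± 0.17 (0.0119), and each call was lost without that condition's array at 0 hr (0.483 and 0.267).

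A straight line describes KLF6 and KLF10 poorly, because in control both dropped early and then came back. KLF6 went from 843.3 to 189.7 in the first 1.5 hr, 22.5% of its start, and then stood at 285.4 and 419.8. KLF10 went from 1227 to 278.5, 22.7% of its start, and then stood at 384.9 and 619.6. Both therefore read 1.15 log2 units higher at 4.5 hr than at 1.5 hr, a difference of at least 1 that 22 of 14478 genes, 0.152%, showed in control. With 1 array per time these steps have no test.

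Other conditions divided at the same point. In hypoxia KLF10 was again 1.76 log2 units higher at 4.5 hr than at 1.5 hr, a difference of at least 1 shown by 0.442% of genes, and KLF6 was 0.60 higher, from 601.2 to 911.9. In tunicamycin both were lower, KLF6 by 1.33 (444.6 to 176.5) and KLF10 by 1.19 (1766 to 775.1). In shRent1 KLF6 was lower by 1.62 (413.2 to 134.0) and KLF10 by 0.25, with its lowest array, 615.5, at 3 hr. In emetine the representative probe sets of both stayed within 0.12 log2 units in each interval. The 4 KLF6 probe sets above the test level shared the pattern, with late changes of 1.10 to 1.35 in control, -1.33 to -0.74 in tunicamycin and -1.62 to -0.80 in shRent1. These probe sets were read on the same single arrays, so they do not replicate the course. KLF10 has 1 probe set on the array, so no other probe set could be compared with it.

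**Figure D4:**
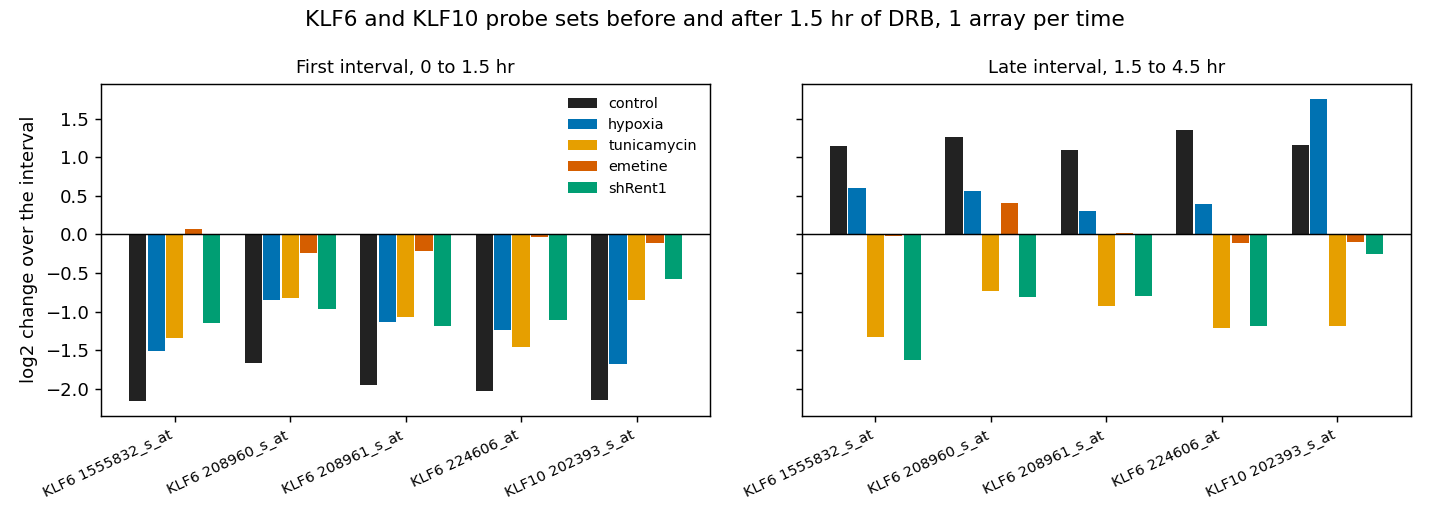
Log2 change of intensity (vertical axis, log2 units) of the 4 KLF6 probe sets above the test level and the KLF10 probe set from 0 to 1.5 hr and from 1.5 to 4.5 hr after DRB, by condition, drawn as bars from 0 with 1 array per time and so without errors. In the late interval the control and hypoxia bars point up (control 1.10 to 1.35 for KLF6) and the tunicamycin and shRent1 bars down.

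With the 5 conditions taken as repeats of the time course, 3 members fell from 0 to 1.5 hr, against a background of 2.91% of genes falling. These were KLF2 by 0.80 ± 0.19 (limma adjusted p = 0.0172), KLF5 by 0.68 ± 0.16 (0.0156) and KLF7 by 0.31 ± 0.09 (0.0484). KLF6 (-1.22 ± 0.39, 0.0564) and KLF10 (-1.07 ± 0.34, 0.0517) had larger estimates that missed the threshold. All 3 calls were lost without the control array at 0 hr (adjusted p = 0.0596, 0.0587 and 0.113) or at 1.5 hr (0.06, 0.0552 and 0.127), and that of KLF7 in 17 of 29 alternatives, turning to 0.13 with the median of its probe sets. Without the emetine array at 0 hr, 7 fell. With emetine left out, an alternative chosen after seeing the data, 7 fell, all but KLF9 and KLF13, where the background was 5.66%; KLF6 fell by 1.54 ± 0.39 (adjusted p = 0.0221) and KLF10 by 1.31 ± 0.37 (0.0344).

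From 1.5 to 4.5 hr 6 members fell, against a background of 13.7%. KLF11 fell by 0.99 ± 0.17 (limma adjusted p = 0.00263), KLF9 by 0.69 ± 0.12 (0.00299), KLF3 by 0.68 ± 0.17 (0.0114), KLF2 by 0.60 ± 0.19 (0.033), KLF5 by 0.53 ± 0.16 (0.0257) and KLF13 by 0.51 ± 0.07 (0.00138). KLF9 and KLF13 were thus called in the pooled late interval but not in the first, where their changes were -0.12 ± 0.12 and 0.05 ± 0.07. Single conditions differed for KLF9. Its log2 changes in the first and late intervals were -0.68 and -0.18 in emetine, and 0.48 and -1.1 in hypoxia. The KLF2 call was lost in 10 of 29 alternatives and turned to 0.18 in 1 of them, with its dim probe set, and the KLF5 call was lost in 6 of 29. Both were lost without the control array at 4.5 hr (adjusted p = 0.0971 and 0.0662), the tunicamycin array at 1.5 hr (0.0857 and 0.0664) or 4.5 hr (0.0648 and 0.0627), the shRent1 array at 1.5 hr (0.0771 and 0.0671) or 4.5 hr (0.0808 and 0.0866), and the hypoxia array at 1.5 hr (0.0553 and 0.069), and that of KLF2 also without the hypoxia array at 4.5 hr (0.0512) or the emetine array at 1.5 hr (0.0529). With the median of the probe sets the late change was -0.13 for KLF9 (adjusted p = 0.415) and -0.02 for KLF13 (0.84), of whose 4 probe sets 2 were above the test level. The second KLF13 probe set above that level read 198.8 at 1.5 hr and 180.8 at 4.5 hr in control. At the same times it read 208.2 and 194.7 in hypoxia, 153.4 and 157.5 in tunicamycin, 135.2 and 111.1 in emetine, and 162.7 and 149.2 in shRent1.

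The genes most like the 2 members of widest range were described over the 20 arrays, which share their conditions and times. KLF2 spanned 5.12 log2 units, and DUSP2, a MAP kinase phosphatase (Pearson r = 0.985), HINFP (0.979) and TOGARAM1 (0.978) followed it most closely. KLF10 spanned 4.74, and the immediate-early factor EGR1 (0.972), CSRNP1 (0.958) and ZNF879 (0.935) followed it most closely. For both KLF2 and KLF10 the emetine arrays lay above all others, and these correlations were not computed without emetine.

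Of 16 KLF and SP relatives 11 were tested, and in emetine 5 were higher and 1 lower, with a median of 0.28, where 18.9% and 19.8% of all genes were higher and lower. SP4 (1.91 ± 0.14), KLF15 (1.11 ± 0.13) and SP1 (0.64 ± 0.11), the founder of the SP branch, were among the higher ones, and KLF14 was the lower one (-0.70 ± 0.12). In hypoxia 1 was higher, SP3 (0.58 ± 0.12), where 3.21% of all genes were. Limma called 0 of 11 in tunicamycin (background 2.89% in either direction) and in shRent1 (9.68% higher and 3.99% lower). Within control 1 of 11 fell after DRB, where 17.5% of all genes did.

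Of 26 upstream regulators and partners, all tested, 8 were higher and 2 lower in emetine (median 0.16), beside the same 18.9% and 19.8% of all genes. Among the higher ones were the acetyltransferase EP300 (1.63 ± 0.15), which KLFs recruit, the ubiquitin ligase SMURF1 (1.20 ± 0.16) and SIN3A (0.88 ± 0.15), the corepressor of KLF9, KLF10, KLF11 and KLF13. The receptor TGFBR2, upstream of KLF10, was lower (-1.60 ± 0.12). In hypoxia SMAD3 (0.63 ± 0.12), MAPK7 (0.52 ± 0.13) and TGFBR1 (0.49 ± 0.13) were higher, 3 of 26 (background 3.21%). In shRent1 3 were higher, a share close to the 9.68% of all genes, SMURF1 (0.86 ± 0.16), TGFBR1 (0.57 ± 0.13) and WWP1 (0.54 ± 0.14). In tunicamycin SMURF1 alone of the 26 was higher (0.66 ± 0.16), where 2.89% of all genes were called in either direction.

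Of 24 transcripts described as KLF targets 20 were tested, and 5 were higher and 3 lower in emetine (median -0.07), shares close to the 18.9% and 19.8% of all genes. The cyclin-dependent kinase inhibitors CDKN1B (2.73 ± 0.42) and CDKN1A (1.09 ± 0.15) were higher, with SMAD7 (1.83 ± 0.27), an inhibitor of TGF-beta signalling, while the growth factor HBEGF (-1.78 ± 0.26) was among the lower ones. In hypoxia PLAU was lower (-0.63 ± 0.13), 1 of 20, a share close to the 4.44% of all genes. In tunicamycin TXNIP was higher (0.58 ± 0.11) and ENG lower (-1.17 ± 0.15), where 2.89% of all genes were called in either direction. In shRent1 PLAU (0.68 ± 0.13) and PDGFA (0.40 ± 0.12) were higher, 2 of 20, a share close to the 9.68% of all genes. All values in these 3 lists are limma log2 differences at DRB addition, called at an adjusted p below 0.05.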

How the data were processed

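The deposited values are linear intensities, 1 for each probe set on each array. RMA, a summary that normalizes between arrays, is named for them in the submitters' processing notes, with no version, and was run by the authors before the intensities were deposited, so values are relative to the array. Intensities were transformed to log2 here. The 10 genes and all lists were chosen with earlier results of these data known. Genes were named from the platform annotation, and each was represented by its brightest probe set, filtered at the 40th percentile (log2 4.70), which left 14478 genes.

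Models were fitted with limma 3.58.1 in R 4.3.3 to all 20 arrays and tested on simulated data. Levels and slope differences came from a model of condition, sampling time as a factor, and 1 time slope for each condition (12 coefficients, 8 residual degrees of freedom). Slopes came from a line per condition (10 coefficients), and interval changes from additive factors (8 coefficients). P-values were adjusted by Benjamini-Hochberg over all genes. Each of 20 arrays was left out in turn, and 12 other alternatives were run. Named genes were the 10 members, the 3 best correlated genes of the 2 members of widest range, UPF1, and members of the 3 lists called in a comparison, at most 4 of each, largest moderated statistic first. Some members of the lists were not analysed here.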

Additional observations from a re-analysis of the deposited data

Results flagged for a closer look

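After DRB, 3 members moved at a different rate in emetine than in control by the interaction term of the limma model. The slope difference was 0.34 log2 units per hr for KLF3, 0.31 for KLF11 and 0.25 for KLF5, each higher in emetine. At 4.5 hr KLF3 stood at 32.5% of its starting intensity in control and 96.7% in emetine, KLF11 at 32.4% and 83.0%, and KLF5 at 35.5% and 77.0%.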

How the results depend on the processing

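Of 52 member calls 15 held in every alternative run, and over 1483 refits 1327 kept the call, 146 lost it in the same direction and 10 changed sign. With the median of a gene's probe sets, KLF9 in emetine was -0.14, the KLF13 slope 0.01 in control, 0.00 in tunicamycin and 0.02 in shRent1, and the KLF7 change to 1.5 hr 0.13. That median takes in probe sets below the test level, with 2 of 4 above it for KLF13 and 4 of 5 for KLF7 and KLF9. The second KLF13 probe set above it read 184.1 at 0 hr and 180.8 at 4.5 hr in control, 163.7 and 157.5 in tunicamycin, and 179.1 and 149.2 in shRent1. Without probe sets that may detect several transcripts, which left 6 members tested, the KLF2 slope was 0.12 in control (adjusted p = 0.0351, called rising), 0.00 in hypoxia and 0.07 in tunicamycin, its early change 0.00 and its late change 0.18. The cause was not tested.

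The count of members called at DRB addition became 1 in tunicamycin above the 60th percentile, with 16 added to intensities or with the median of probe sets, and 3 in the average over times. In hypoxia it became 5 in that average and 1 with 2 conditions only, in shRent1 1 with the median or without shared probe sets, and in emetine 4 of the 6 left without them. Falling slopes numbered 3 in control with the median, 3 in hypoxia with either choice of probe sets (of 9 and of 6), 4 with the median and 5 of 6 without shared probe sets in tunicamycin, and 5 in shRent1 with either and after quantile normalization. Early falls numbered 5 with 16 added or quantile normalization and 7 with emetine left out, and late falls 3 of 6 without shared probe sets.

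With 1 array left out, levels were called for 6 to 8 members in emetine, 0 to 3 in hypoxia, 0 to 2 in shRent1 and 0 to 1 in tunicamycin. Slope differences numbered 2 to 3 in emetine, 0 to 1 in tunicamycin and 0 in hypoxia and shRent1. Falling slopes numbered 2 to 7 in control, 3 to 5 in hypoxia, 2 to 9 in tunicamycin, 2 to 8 in shRent1 and 0 in emetine. Early falls numbered 0 to 7 and late falls 4 to 6. Quantile normalization moved the median of all genes by -0.09 to 0.08, and centring on ribosomal protein genes by -0.08 to 0.07. No paired analysis was possible because the labels carry no replicate numbers, and sampling time is already in the models. Signals near the test level have uncertain folds, since detection calls were not used here.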

Other observations

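Members also differed in how they moved together over the 20 arrays, a description in which arrays share conditions and times. KLF2 and KLF3 had a Pearson correlation of 0.97, and 0.89 over the 16 arrays without emetine, and KLF3 and KLF11 of 0.96 and 0.89. KLF5 and KLF9 stayed close with and without emetine, at 0.92 and 0.90. KLF13 and KLF11 had a correlation of -0.05 over all arrays and 0.79 without emetine, and KLF7 and KLF6 of 0.37 and 0.84.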
